A study of Mus musculus with 6 samples.

Results

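DNA replication and S phase genes were followed in mouse sarcoma cells that kept or lacked Dicer, the enzyme that cuts hairpin precursors into mature microRNAs. The set holds 36 genes, listed by their function, and 35 of them have a probe set annotated to that gene alone, out of 18193 genes so named on the arrays. Chaf1a has none and is not analysed here. Where a gene had several such probe sets, the one with the highest mean over the 6 arrays stood for it. All 35 passed the minimum for testing, a mean log2 value of at least 3 over the 6 arrays, as did 11425 named genes in all.

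The RNA came from sarcoma cell lines of strain C57BL6/J, grown to confluence in serum-containing medium and harvested for total RNA. There were 3 samples with the genotype Dicer heterozygote and 3 with the genotype Dicer null, and no other allele or treatment is named. How the gene was deleted, and which part of it, is not given in the sources used here. The series design speaks of 3 lines per genotype and the titles of replicates, so the p-values below measure the spread between these samples, which may come from separate lines or from cultures of 1 line. The genotype is the single factor that the design compares.

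Each S phase copies the genome once. Before it, the origin recognition complex, Cdc6 and Cdt1 load the ring-shaped Mcm2 to Mcm7 complex onto DNA, a step called licensing. Kinases, cyclin E with its partner among them, then turn that ring into a moving helicase by adding Cdc45 and the GINS complex, and polymerases, a sliding clamp and ligase copy the strands behind it. E2F transcription factors, held back by the Rb family in resting cells, drive many of these genes at the entry into S phase, so their messenger RNA is known to move with the fraction of cells that are dividing. In bulk RNA, fewer cells of one phase and less RNA per cell cannot be told apart.

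The control region of these genes can be read directly. RefSeq windows of GRCm38.p6, from 250 bases before to 50 after an annotated transcription start, were matched by symbol for 31 of the 36 genes (36 windows, since a few genes have several starts). An E2F motif was searched on both strands as TTT, then 2 bases that are each C or G, then CGC. It was present in 14 of the 36 windows (38.9%), against 2.26% of all 32851 windows of the same length. The 4 windows below belong to the genes with the smallest p-values in the genotype comparison among those with a match. They are shown because the E2F motif is, of the 3 motifs searched, the one whose share in these windows was furthest from its share in all windows, as a ratio. Capitals mark the match, and the sequences read 5′ to 3′ on the strand of the gene.
Cdc6 (chr11:98907901-98908200, plus strand): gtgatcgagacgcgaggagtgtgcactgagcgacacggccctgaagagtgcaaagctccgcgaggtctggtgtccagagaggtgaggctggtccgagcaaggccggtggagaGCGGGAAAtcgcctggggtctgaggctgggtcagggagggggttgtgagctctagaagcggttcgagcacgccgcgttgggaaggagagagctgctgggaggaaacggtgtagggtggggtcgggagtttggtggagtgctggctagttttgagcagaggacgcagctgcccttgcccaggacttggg
Gins3 (chr8:95633309-95633608, plus strand): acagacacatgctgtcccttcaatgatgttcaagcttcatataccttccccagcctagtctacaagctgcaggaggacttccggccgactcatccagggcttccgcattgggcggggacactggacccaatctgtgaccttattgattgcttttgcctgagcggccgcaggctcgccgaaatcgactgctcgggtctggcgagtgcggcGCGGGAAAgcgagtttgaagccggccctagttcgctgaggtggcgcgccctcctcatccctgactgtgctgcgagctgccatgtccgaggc
Orc1 (chr4:108579204-108579503, plus strand): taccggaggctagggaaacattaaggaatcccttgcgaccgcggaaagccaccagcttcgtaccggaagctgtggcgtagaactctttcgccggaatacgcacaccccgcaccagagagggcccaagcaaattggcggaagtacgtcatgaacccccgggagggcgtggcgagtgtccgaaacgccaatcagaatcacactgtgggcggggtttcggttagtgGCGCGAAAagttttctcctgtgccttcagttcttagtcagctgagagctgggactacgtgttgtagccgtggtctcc
Mcm5 (chr8:75109259-75109558, plus strand): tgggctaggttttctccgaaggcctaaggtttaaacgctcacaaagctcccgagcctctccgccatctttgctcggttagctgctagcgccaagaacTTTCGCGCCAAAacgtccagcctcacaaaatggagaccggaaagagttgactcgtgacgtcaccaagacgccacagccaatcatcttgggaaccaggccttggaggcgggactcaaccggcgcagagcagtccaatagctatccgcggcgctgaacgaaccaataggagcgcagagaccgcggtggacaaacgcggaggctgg
In Cdc6, Gins3 and Orc1 the single match lies on the strand opposite to the gene. In Mcm5 a pair of matches on opposite strands overlaps, so that the capitals form 1 run.

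**Figure D1:**
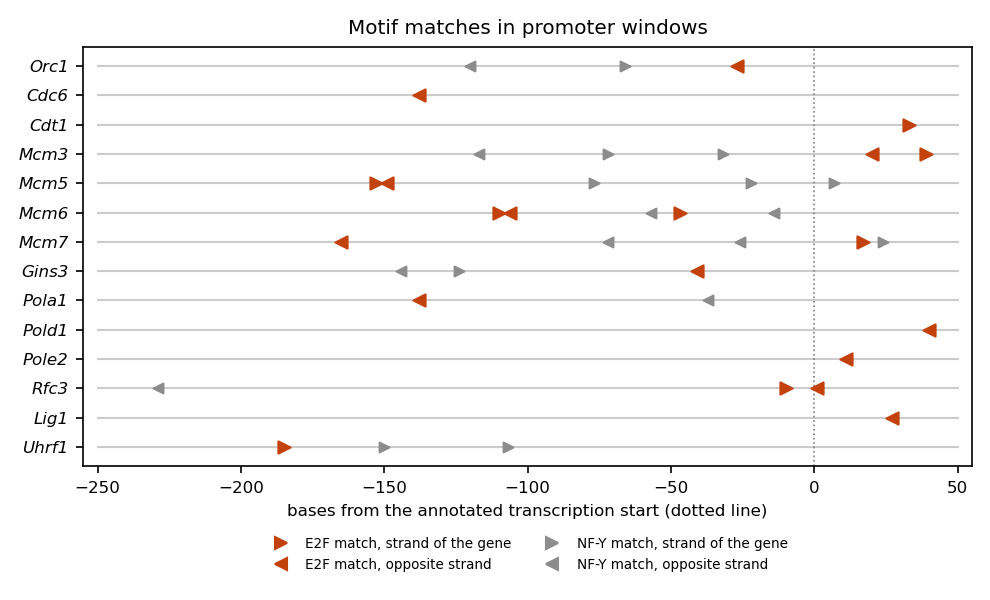
Each line is the promoter window of 1 of the 14 replication genes with an E2F match, from 250 bases before to 50 after the annotated start (dotted line). Triangles give the leftmost base of each match on the axis of bases from the start, E2F in orange and the NF-Y motif in grey, pointing right for the strand of the gene and left for the other; 12 of the 20 E2F matches start between -100 and 50.

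Among the matches were those of the licensing genes Orc1, Cdc6, Cdt1, Mcm3, Mcm5, Mcm6 and Mcm7. The other 7 genes were Gins3, Pola1, Pold1, Pole2, Rfc3, Lig1 and Uhrf1. The NF-Y motif, CCAAT on either strand, was in 58.3% of the windows of the set and in 37.4% of all windows. The CHR motif, TTTGAA on either strand, a promoter element known from mitotic genes, was in 11.1% against 17.9%. In a list of 52 other replication genes, with 47 windows, the shares were 25.5% for E2F, 51.1% for NF-Y and 17.0% for CHR. In a list of 36 mitosis genes, with 34 windows, they were 5.88%, 73.5% and 73.5%. A match describes letters in a window and not a bound site. Genes of the set with an E2F match had a median log2 difference between the genotypes of 0.50 (14 genes with a value) and those without one 0.62 (16 genes).

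The arrays held 45037 probe sets as log2 values with medians of 3.32 to 3.43, and their number, 3 per genotype, limits the precision. Of 10 mesenchymal markers 9 had a mean of at least 3, Vim and Sparc among them. Of these 9 markers, 5 were lower and 4 higher in null arrays, and none was called. The most negative log2 differences were -1.37 for S100a4, with separate groups, -1.03 for Pdgfrb and -0.78 for Col1a1 (limma adjusted p = 0.057, 0.186 and 0.224). These genes were named after their values were seen. Fn1 (-0.17) and Vim (-0.07) were the other lower ones, and the largest upward difference was 0.17, in Col3a1. The part of these markers in the results was not tested. Of the other marker lists, 0 of 6 endothelial, 2 of 7 leukocyte, 2 of 7 epithelial and 1 of 6 skeletal muscle markers had a mean of at least 3. The log2 of the summed epithelial markers ran from 5.01 to 9.13 in heterozygous and from 5.12 to 6.22 in null arrays, the highest of them through Krt18 (9.02) in heterozygous replicate 1, and its part in the results was not tested. The 2 tested Dicer1 probe sets gave log2 differences of 0.14 and 0.27 (limma adjusted p = 0.693 and 0.573), and since the deleted part is unknown they check nothing. Heterozygous replicate 3 stood apart in the replication genes, and values without it are given beside the results that it moved most.

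Replication genes lay higher in the Dicer null arrays almost throughout, but few differences were large next to the spread between replicates. Of the 35 genes, 34 had a positive log2 difference (null minus heterozygous), with a median of 0.56, while 48.7% of all tested genes had a positive one, with a median of -0.01. A gene is called here where the adjusted p of limma's moderated test, by Benjamini-Hochberg over the 24385 probe sets in the fit, is under 0.05. By that rule 1 gene, Brca1, rose and 0 fell, where 3.46% of all tested genes were called and 1.45% were called higher. At an unadjusted limma p under 0.05, 14 of the 35 were higher and 0 lower, where 24.0% of all tested genes passed in either direction and 10.5% were higher. A difference of at least 2-fold upward was seen in 8 of the 35 and in 6.28% of all tested genes, and without heterozygous replicate 3 in 4 (Cdc6, Mcm10, Ccne1 and Brca1) and in 6.06%. Since the genes were chosen with earlier results of these data known, these counts describe the set and are no test of it.

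**Figure D2:**
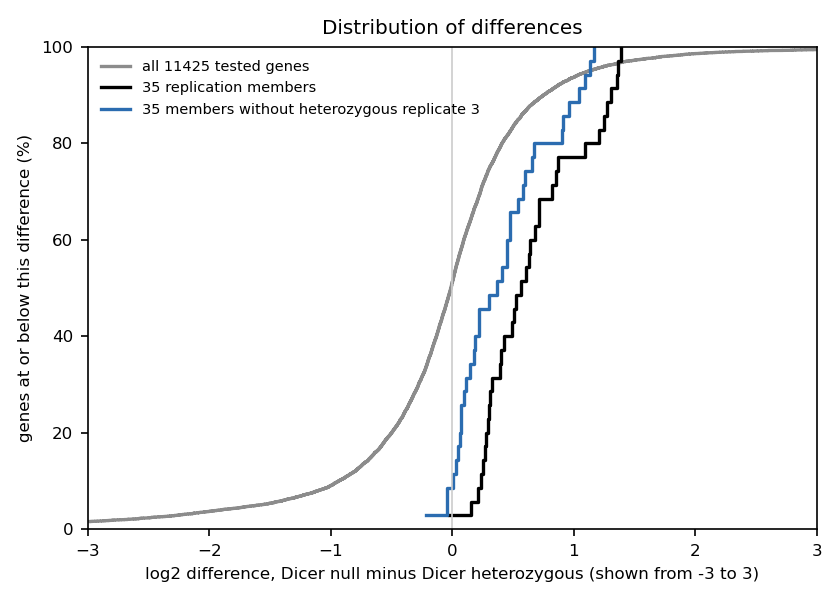
The share of genes (vertical axis, %) at or below each log2 difference between Dicer null and Dicer heterozygous arrays (horizontal axis), for all 11425 tested genes, the 35 replication genes and the same 35 without heterozygous replicate 3. The curve of the replication genes lies right of 0 for 34 of 35 genes, and without that array its median moves from 0.56 to 0.37.

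Array by array, the set had a low end and a high end. Its level was taken as the median over the 35 genes of the log2 value minus that gene's mean over the 6 arrays. This gave -0.17, -0.02 and -0.77 in heterozygous replicates 1, 2 and 3 and 0.23, 0.47 and 0.17 in null replicates 1, 2 and 3. Heterozygous replicate 3 was thus far below the rest, null replicate 2 was highest, and the levels of the genotypes did not overlap. In 32 of the 35 genes (91.4%) heterozygous replicate 3 was the lowest of the 6 arrays, as it was for 30.0% of all tested genes. Null replicate 2 was the highest array in 25 of 35 (71.4%), against 19.8% of all tested genes. Without heterozygous replicate 3 the median difference was 0.37, 32 of the 35 differences were positive, 0 genes were called by limma (4.07% of all tested genes, 1.56% higher) and 11 were higher at an unadjusted p under 0.05 (10.4% of all tested genes). Over the 6 fits that each leave out 1 array, that last count ran from 10 to 15. The matching share over all tested genes is given here only for the fit without heterozygous replicate 3, so this range has no background beside it. Calls by limma's adjusted p, a stricter measure, ran from 31 to 465 over all tested genes in those fits.

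**Figure D3:**
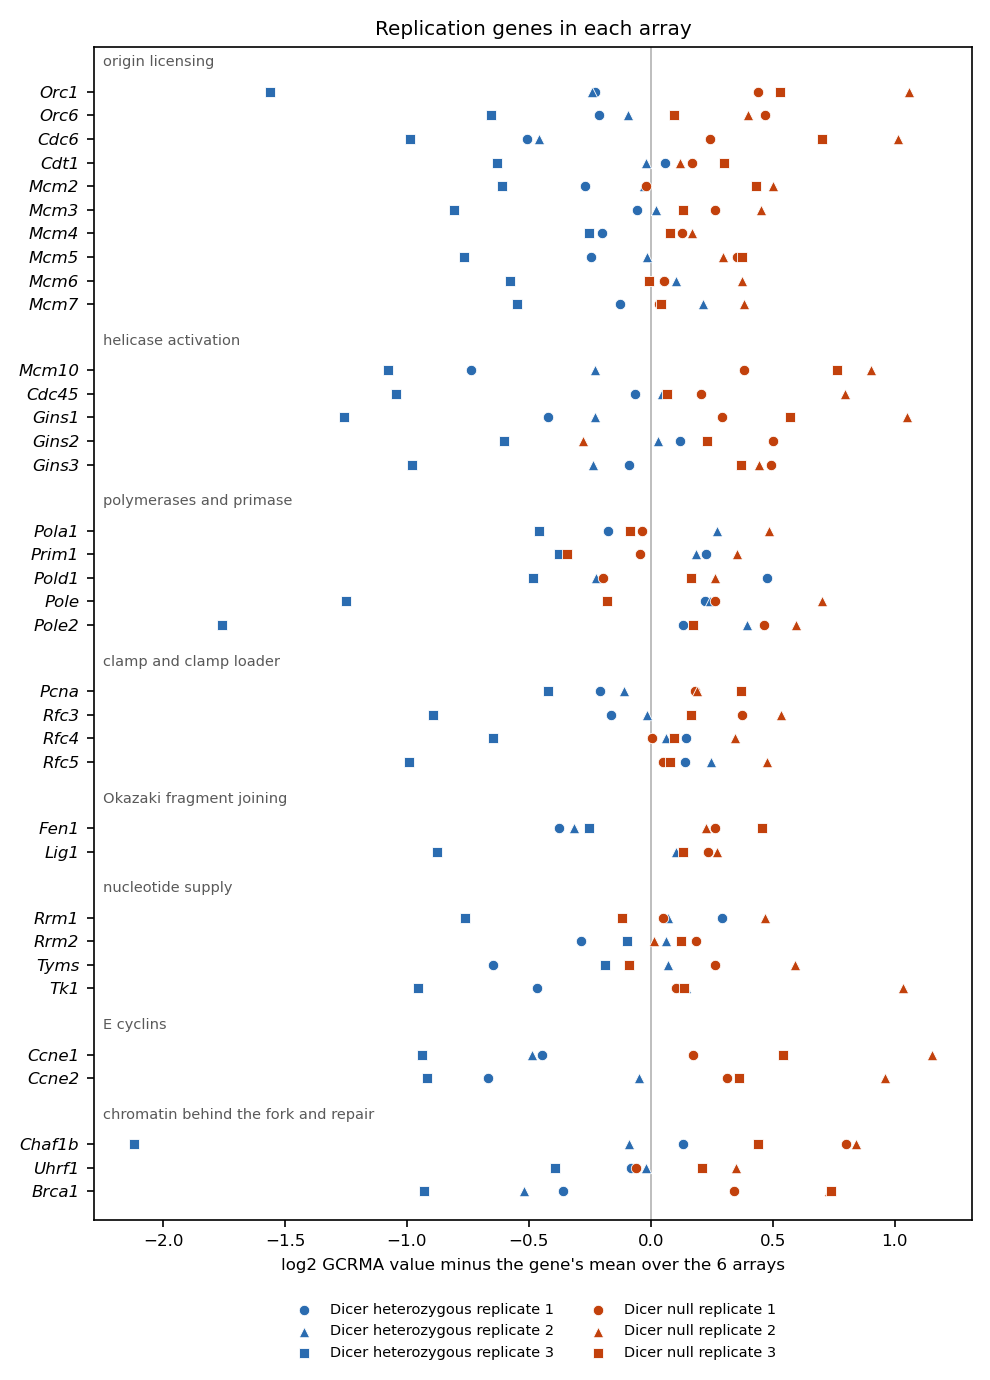
Each row is a replication gene and each point an array, placed at its log2 value minus the gene's mean over the 6 arrays; blue marks Dicer heterozygous and orange Dicer null, and the shape gives the replicate. Heterozygous replicate 3 (blue squares) is the lowest point in 32 of the 35 rows, and in 18 rows all orange points lie right of all blue ones.

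By their chosen probe sets, the genes fell into a part that separated the genotypes and a part that did not. For some genes another probe set gave the other outcome, as described below. In 18 of the 35 all null values lay above all heterozygous values (14.9% of all tested genes did so), and in 0 all lay below. Leaving out an array cannot undo such a separation. Leaving out heterozygous replicate 3 added 0 genes to the 18, while the share over all tested genes became 20.1%. Of the other 17 genes, 16 had a positive difference, and 15 of the 17 lay within 0.25 of 0 on the log2 scale once that array was left out. The 18 were mostly genes of licensing, of helicase activation and the E cyclins, while none of the 5 polymerase and primase genes was among them. Whether the roles differ from each other was not tested.

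Licensing genes came first in the order of events. Of these 10, 7 separated the genotypes, 5 had an unadjusted p under 0.05 and 0 were called by limma, with a median difference of 0.59. The shares of all tested genes were 14.9% separated with null higher, 10.5% higher at that unadjusted p and 1.45% called higher. Without heterozygous replicate 3, 3 had an unadjusted p under 0.05 (10.4% of all tested genes were higher by that measure) and the median was 0.38. Cdc6, the factor that recruits the Mcm ring to origins, read 7.78, 7.83 and 7.30 in heterozygous and 8.53, 9.30 and 8.99 in null arrays. All null values lay above all heterozygous ones, and the adjusted p missed the threshold (log2 difference 1.30, SE 0.26, limma adjusted p = 0.057). Orc1, the large subunit of the origin recognition complex that binds and hydrolyses ATP, read 5.69, 5.68 and 4.36 against 6.36, 6.98 and 6.45. The groups were apart, heterozygous replicate 3 was lowest, and the difference of 1.35 (SE 0.41, limma adjusted p = 0.124) was 0.91 without it. A further Orc1 probe set, with a mean of 3.97 near the minimum of 3, differed by 0.20, and the mean over both probe sets by 0.78. The smallest subunit, Orc6, stood at 11.56 ± 0.29 against 12.20 ± 0.20 (SD, n = 3 here and in all pairs below, heterozygous first). Cdt1, the partner of Cdc6 in loading, stood at 11.74 ± 0.38 against 12.14 ± 0.09 and differed by 0.39, or 0.18 without heterozygous replicate 3, while its further probe set differed by 0.68.

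Subunits of the Mcm ring, which work in equal numbers, had differences from 0.25 (Mcm4) to 0.68 (Mcm5), or from 0.06 (Mcm6) to 0.47 (Mcm5) without heterozygous replicate 3, and whether these differ from each other was not tested. Mcm5 read 11.06, 11.29 and 10.54 in heterozygous and 11.66, 11.60 and 11.68 in null arrays (log2 difference 0.68, SE 0.23, limma adjusted p = 0.147). The null values were close together and above all heterozygous ones. Mcm2 (10.44 ± 0.29 against 11.04 ± 0.28) and Mcm3 (11.33 ± 0.46 against 11.89 ± 0.16) separated too. The values of Mcm4 (11.78 ± 0.18 against 12.03 ± 0.05), Mcm6 (11.84 ± 0.38 against 12.12 ± 0.20) and Mcm7 (10.82 ± 0.38 against 11.13 ± 0.20) overlapped or touched. Without heterozygous replicate 3 the difference of Mcm3 went from 0.56 to 0.30, that of Mcm6 from 0.28 to 0.06 and that of Mcm7 from 0.31 to 0.11. The chosen probe sets of all 6 ring genes carry the s or x suffix, which marks probes that can match several transcripts. Other probe sets gave larger differences for Mcm2 (0.80), Mcm4 (0.62), Mcm5 (1.13 and 1.40), Mcm3 (0.61 to 1.27) and Mcm7 (0.36 to 0.55), none of them called. That of Mcm6 gave 0.29. The further Mcm4 probe set separated the genotypes, with 11.06 as its highest heterozygous and 11.30 as its lowest null value. So did 1 of Mcm7 (10.87 and 10.97), while its others and that of Mcm6 overlapped. The order of the subunits' differences, and which of them separate, thus depend on the probe set.

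Helicase activation held some of the larger differences. Of 5 genes 4 separated, 3 had an unadjusted p under 0.05 and 0 were called (14.9%, 10.5% and 1.45% of all tested genes, null higher). The median was 0.87, and 0.60 without heterozygous replicate 3. Mcm10, which helps the loaded ring to open and start, read 7.50, 8.01 and 7.16 against 8.62, 9.14 and 9.00, a difference of 1.36 (SE 0.27, limma adjusted p = 0.0555). Gins1 read 9.30, 9.49 and 8.46 against 10.01, 10.77 and 10.29, a difference of 1.27 (SE 0.34, limma adjusted p = 0.0964). Gins3 read 8.32, 8.17 and 7.43 against 8.90, 8.85 and 8.78, a difference of 0.87 (SE 0.26, limma adjusted p = 0.123). In all 3 genes the genotypes were apart by these probe sets, and in Gins3 the null arrays varied little (SD 0.06). A further Gins3 probe set overlapped, with 5.27 as its highest heterozygous and 5.24 as its lowest null value (difference 0.66, limma adjusted p = 0.398). The further tested probe sets of Mcm10 and Gins1 separated the genotypes. Gins1 and Gins3 encode parts of the GINS complex that holds the helicase together. A further GINS subunit, Gins2, overlapped between the genotypes (9.90 ± 0.39 against 10.20 ± 0.40), and its lowest null value was in null replicate 2, the array in which most other replication genes were highest. Its difference was 0.30, or 0.075 without heterozygous replicate 3. Cdc45, the other partner of the ring, stood at 8.46 ± 0.60 against 9.17 ± 0.39 and differed by 0.71, or 0.37 without heterozygous replicate 3. Its further probe set, with a mean of 3.37 near the minimum of 3, differed by 0.20.

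Both E cyclins, the activators of Cdk2 at the entry into S phase, separated the genotypes and neither was called. Ccne1 read 8.95, 8.91 and 8.46 in heterozygous and 9.57, 10.55 and 9.94 in null arrays (log2 difference 1.25, SE 0.30, limma adjusted p = 0.0777). Ccne2 read 8.47, 9.09 and 8.22 against 9.45, 10.10 and 9.50 (log2 difference 1.09, SE 0.30, limma adjusted p = 0.103). Null replicate 2 was the highest array for both. Without heterozygous replicate 3 the differences were 1.09 and 0.90.

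**Figure D4:**
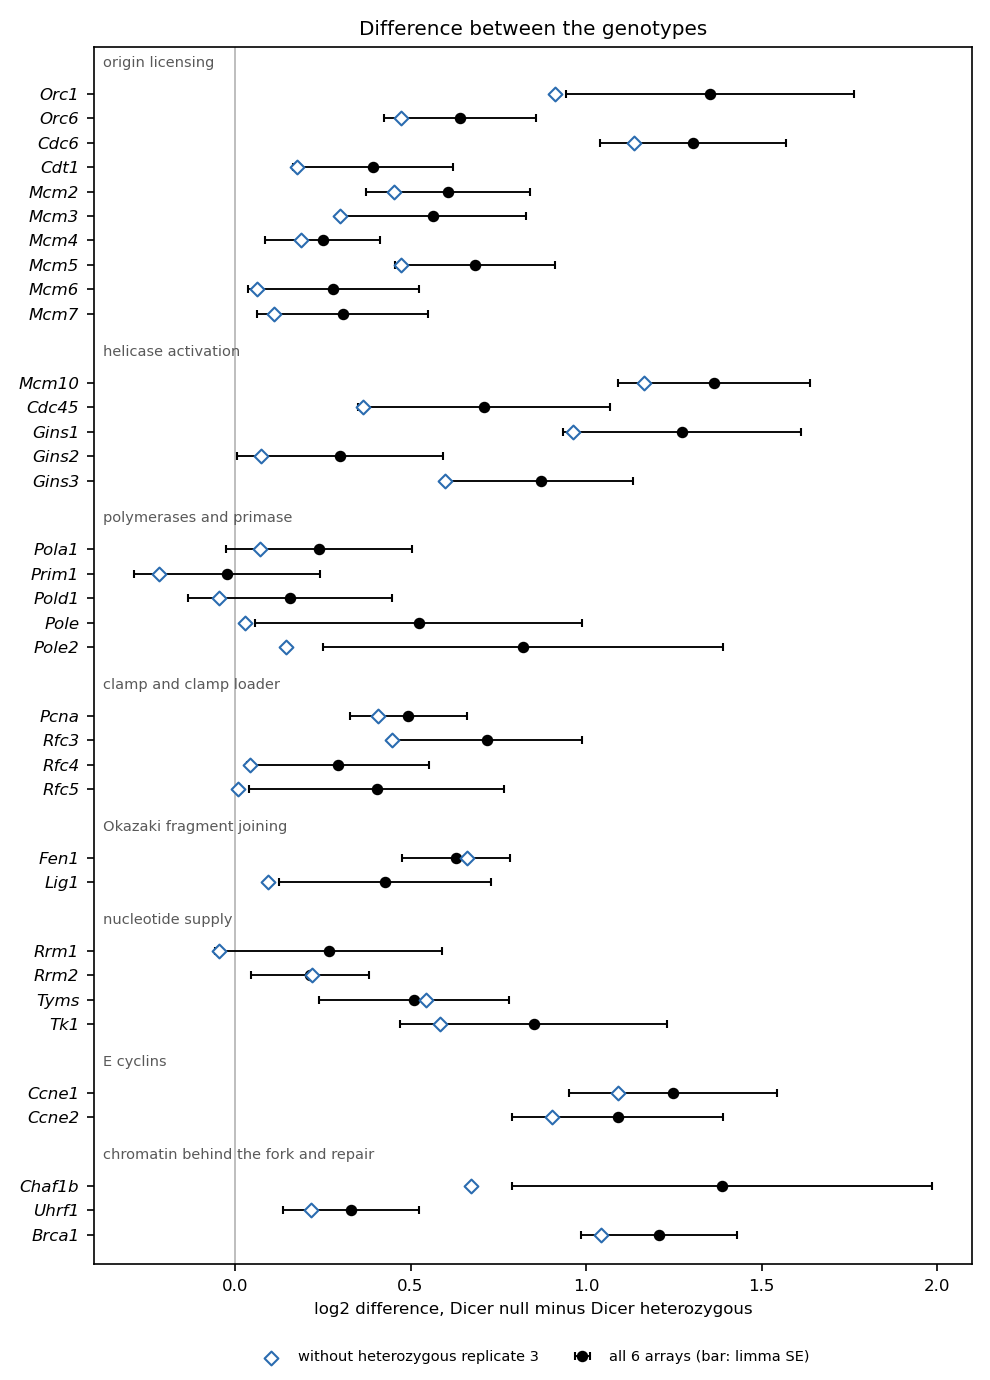
For each replication gene, the log2 difference between Dicer null and Dicer heterozygous arrays with limma's standard error (black, 6 arrays) and the same difference without heterozygous replicate 3 (open blue diamonds). Both measures stay above 0.90 for Cdc6, Orc1, Mcm10, Gins1, Ccne1, Ccne2 and Brca1, while Pole goes from 0.52 to 0.03 and Pole2 from 0.82 to 0.15.

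Genes of the copying enzymes overlapped between the genotypes. None of the 5 polymerase and primase genes separated the genotypes, and 0 were called or had an unadjusted p under 0.05 in limma, with a median of 0.24 and of 0.03 without heterozygous replicate 3. Prim1, the catalytic subunit of primase, stood at 11.02 ± 0.34 against 10.99 ± 0.35 and was the single gene of the 35 with a negative difference. Pola1, catalytic subunit of the polymerase that extends primers, stood at 9.78 ± 0.37 against 10.02 ± 0.32. Pold1, of the lagging-strand polymerase, stood at 10.74 ± 0.50 against 10.89 ± 0.24. Pole and Pole2, subunits of the leading-strand polymerase, stood at 9.01 ± 0.85 against 9.53 ± 0.44 and at 7.84 ± 1.17 against 8.66 ± 0.22. Their wide heterozygous spread came from replicate 3, which read 8.02 for Pole and 6.49 for Pole2, more than 1 log2 unit below every other array. Without that array the differences were -0.22 for Prim1, 0.07 for Pola1, -0.05 for Pold1, 0.03 for Pole and 0.15 for Pole2.

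The clamp that tethers polymerases to DNA and its loader were mixed. Pcna, the clamp itself, stood at 11.97 ± 0.16 against 12.47 ± 0.11, and Rfc3, a loader subunit, at 9.08 ± 0.47 against 9.79 ± 0.19. Both separated the genotypes with an unadjusted p under 0.05 and neither was called (limma adjusted p = 0.151 and 0.187). Without heterozygous replicate 3 neither had an unadjusted limma p under 0.05 (0.055 and 0.060), with differences of 0.41 and 0.45 in place of 0.49 and 0.72. The loader subunits Rfc4 (10.87 ± 0.43 against 11.16 ± 0.18) and Rfc5 (7.45 ± 0.69 against 7.85 ± 0.24) overlapped, with differences of 0.04 and 0.01 without heterozygous replicate 3.

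Fen1, the nuclease that trims Okazaki fragments, was one of 3 genes, with Rrm2 and Tyms, in which heterozygous replicate 1 was the lowest array. It read 11.17, 11.23 and 11.29 in heterozygous and 11.81, 11.77 and 12.00 in null arrays, so that heterozygous replicate 3 was the highest of its group. The difference of 0.63 (SE 0.15, limma adjusted p = 0.0828) was 0.66 without that array. A further Fen1 probe set, which carries no s or x suffix, read 8.68, 9.02 and 8.90 against 10.00, 10.28 and 10.17, and it was called (log2 difference 1.28, limma adjusted p = 0.0259). Lig1, the ligase that seals the fragments, followed the other pattern, with 9.64 ± 0.57 against 10.07 ± 0.07 and a difference of 0.10 without heterozygous replicate 3.

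By their chosen probe sets, enzymes of nucleotide supply overlapped between the genotypes in 4 of 4 cases. In limma 0 of these were called or reached an unadjusted p under 0.05. Rrm1 and Rrm2, the subunits of ribonucleotide reductase, stood at 10.93 ± 0.55 against 11.19 ± 0.30 and at 12.12 ± 0.18 against 12.33 ± 0.09. Rrm2 had the highest mean of the chosen probe sets and read 11.94, 12.29 and 12.13 against 12.41, 12.24 and 12.35. Its difference of 0.21 was close to its standard error of 0.17. The chosen probe set carries the x suffix, and 2 further Rrm2 probe sets without it differed by 1.18 and 0.83, each with an unadjusted p under 0.05 and neither called (limma adjusted p = 0.184 and 0.195). Both separated the genotypes, the first with 6.22 as its highest heterozygous and 6.27 as its lowest null value. The second read 9.58, 10.73 and 10.26 against 10.93, 10.82 and 11.32. Rrm1 differed by 0.27, or by -0.05 without heterozygous replicate 3, and its further probe set by 0.56. Tk1, thymidine kinase, stood at 9.28 ± 0.55 against 10.13 ± 0.53, with null replicate 2 the highest array at 10.74, and differed by 0.85, or by 0.58 without heterozygous replicate 3. Tyms, thymidylate synthase, had the lowest mean of the set and read 3.49, 4.21 and 3.95 against 4.40, 4.73 and 4.05, which is near the minimum of 3. Its other 3 probe sets lay below that minimum, so the arrays say little on it.

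Chaf1b, a subunit of the assembly factor that deposits histones on new DNA, had the largest difference of the set, 1.39. Its standard error was the largest too (SE 0.60, limma adjusted p = 0.232). It stood at 6.36 ± 1.24 against 7.74 ± 0.22, with 4.93 in heterozygous replicate 3, and the genotypes were apart. Without that array the difference was 0.67, and the unadjusted limma p went from 0.058 to 0.019 (limma adjusted p = 0.127). Uhrf1, which carries DNA methylation over to the new strand, overlapped (11.18 ± 0.20 against 11.51 ± 0.21). Its difference of 0.33 was 0.22 without heterozygous replicate 3, while a further Uhrf1 probe set differed by 1.13 with an unadjusted p of 0.025 (limma adjusted p = 0.155). Brca1, a repair protein that also protects stalled forks, read 8.57, 8.41 and 8.0 in heterozygous and 9.27, 9.66 and 9.67 in null arrays. The genotypes were apart, and Brca1 rose 2.31-fold (log2 difference 1.21, SE 0.22, limma adjusted p = 0.048). Its other 2 tested probe sets differed by 1.44 and 1.07 without passing (limma adjusted p = 0.0719 and 0.0554). The call was lost without any 1 of the 6 arrays (limma adjusted p = 0.0597 without heterozygous replicate 3, up to 0.167 without null replicate 3), while the log2 difference stayed between 1.04 and 1.34.

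Second measures of the same transcripts pointed the same way. The 35 genes have 42 further probe sets annotated to them alone, 32 of which, from 23 genes, had a mean of at least 3. All 32 differed in the direction of the chosen probe set, 31 of them upward and 1 downward, with a median difference of 0.73. By limma 1 of them was called, that of Fen1 (3.10% of all probe sets were called, 1.62% higher), and 19, all higher, had an unadjusted p under 0.05 (12.2% of all probe sets were higher by that measure). Heterozygous replicate 3 was the lowest array in 25 of the 32. These probe sets share arrays and RNA with the chosen ones and are no independent samples.

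The rest of the replication machinery was taken from a further list of 52 genes, 51 of them with a probe set and tested. By limma 1 rose and 0 fell, while at an unadjusted p under 0.05 14 were higher and 1 lower. The lower gene of this list was Pold4, the smallest subunit of the lagging-strand polymerase, named after its values were seen, at 10.06 ± 0.36 against 8.66 ± 0.43 (limma adjusted p = 0.0593). Dna2, a nuclease and helicase that acts with Fen1 on fragment ends, rose 7.14-fold, from 5.10, 5.74 and 4.04 to 7.36, 8.43 and 7.60 (log2 difference 2.84, SE 0.49, limma adjusted p = 0.0436). It stayed called without heterozygous replicate 3 (limma adjusted p = 0.0438) and was not called without any 1 of the other 5 arrays (up to 0.136, without null replicate 3). The size depends on the probe set, as the mean over its 3 probe sets differed by 1.34 on the log2 scale (limma adjusted p = 0.0416). The median difference of this list was 0.45, and 47 of 51 were positive (48.7% of all tested genes). Without heterozygous replicate 3 the median was 0.21 and 36 were positive (45.2% of all tested genes). Its level was 0.04, 0.03 and -0.59 in heterozygous replicates 1, 2 and 3 and 0.14, 0.47 and 0.09 in their null counterparts.

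Mitosis genes, the next programme of the cell cycle, were lowest in heterozygous replicate 3 in 34 of 35 cases. Of 35 tested genes 0 were called by limma and 6 had an unadjusted p under 0.05, with a median difference of 0.75 that became 0.26 without that array. The count of 6 depended on single arrays: it became 14 when heterozygous replicate 1 was left out and 4 when heterozygous replicate 3 was. Leaving out null replicate 2 gave 0, and null replicate 3 gave 1. Of all tested genes 10.5% were higher at an unadjusted limma p under 0.05 with all arrays and 10.4% without heterozygous replicate 3. That share is not given here for the other fits. Calls by limma's adjusted p over all tested genes, a stricter measure than that of these counts, were 395 with all arrays. They were 269 and 465 without heterozygous replicates 1 and 3, and 31 and 37 without null replicates 2 and 3. The level of the mitosis genes was 0.18, 0.02 and -1.34 in heterozygous replicates 1, 2 and 3 and 0.27, 0.66 and 0.14 in null replicates 1, 2 and 3. The levels of the genotypes thus overlapped, heterozygous replicate 1 lying above null replicate 3. Whether this list differs from the replication genes was not tested. The smallest p-values belonged to the spindle assembly factor Tpx2 (difference 0.73, SE 0.24, limma adjusted p = 0.143) and the kinesin Kif20a (1.21, or 0.75 without heterozygous replicate 3, SE 0.41, limma adjusted p = 0.156).

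**Figure D5:**
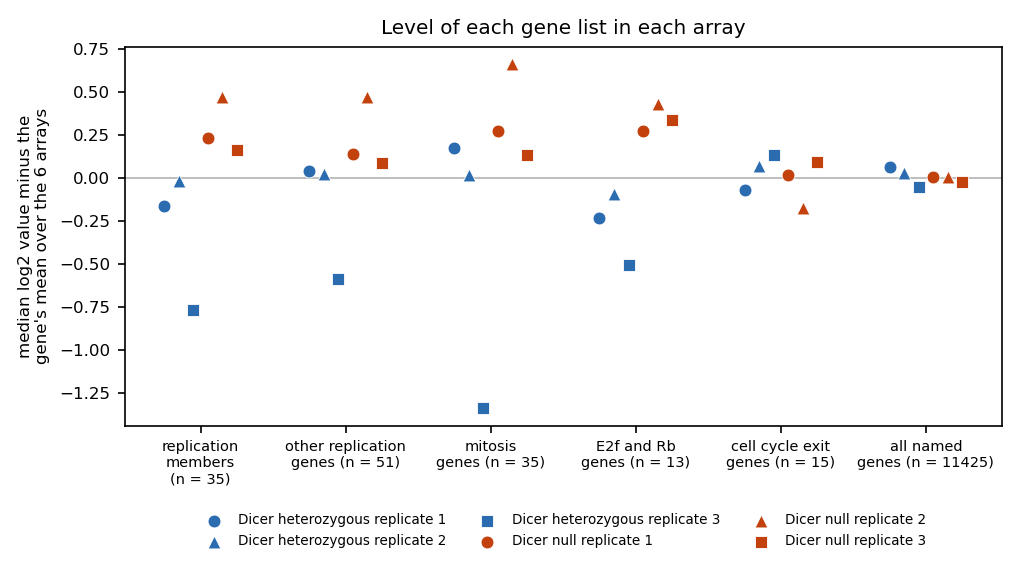
For each gene list, the median over its genes of the log2 value minus the gene's mean over the 6 arrays (vertical axis), 1 point per array, blue for Dicer heterozygous and orange for Dicer null. Heterozygous replicate 3 lies at -0.77 for the replication genes and at -1.34 for the mitosis genes but at 0.13 for the cell cycle exit genes.

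Regulators upstream of S phase were read from short lists. Among 13 E2f and Rb family genes 0 were called by limma and 4 had an unadjusted p under 0.05, with a median difference of 0.53 both with and without heterozygous replicate 3. That count was 7 without heterozygous replicate 3 and 2 without any 1 of the null arrays. Of all tested genes 10.5% were higher at an unadjusted limma p under 0.05 with all arrays. That share was 10.4% without heterozygous replicate 3 and is not given here without a null array. Calls by limma's adjusted p over all tested genes, a stricter measure, were 395 with all arrays and 465 without heterozygous replicate 3. Without null replicates 1, 2 and 3 those calls were 107, 31 and 37. E2f5 stood at 8.84 ± 0.10 against 9.76 ± 0.20 (difference 0.92, limma adjusted p = 0.0516) and E2f2 at 3.44 ± 0.62 against 5.91 ± 0.84 (2.48, limma adjusted p = 0.0564). E2f5 is known as a partner of the Rb family in resting cells, and E2f2 as an activator. Both separated the genotypes, and E2f5 read 8.95, 8.78 and 8.79 in the heterozygous arrays. Among 15 genes of cell cycle exit 1 rose and 0 fell by limma, while at an unadjusted p under 0.05 1 was higher and 2 were lower, with a median difference of -0.10. The lower ones, named after their values were seen, were the transcription factor Klf4 (-1.04, limma adjusted p = 0.0776) and the Cdk inhibitor Cdkn2b (-0.67, limma adjusted p = 0.0858). Without heterozygous replicate 3 the median was -0.07, and 7 of the 15 differences were positive in place of 6. Cdkn1a, also named after its values were seen, then went from -0.93 to -1.56 (limma adjusted p = 0.0656 without that array). Cdkn1c went from 1.47 to 0.77. Cdkn2c, an inhibitor of Cdk4 and Cdk6 whose gene E2F proteins are known to drive, rose 2.15-fold, from 9.98, 10.12 and 9.76 to 11.14, 11.10 and 10.94 (log2 difference 1.11, SE 0.17, limma adjusted p = 0.0339). It stayed called without heterozygous replicate 3 (limma adjusted p = 0.0458) and was not called without any 1 of the other 5 arrays (up to 0.115, without null replicate 2).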

How the data were processed

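RNA of 6 cell line samples was hybridised to Affymetrix 3′ expression arrays. The values deposited by the authors are log2 per probe set, a scale read from their range, and R 2.11.1 and GCRMA 2.20.0 were used per the submitters' processing notes. GCRMA corrects background by probe sequence and equalises quantiles between arrays, so a shift common to all RNA is removed. Its settings are not stated in the labels.

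Groups were taken from the titles. Gene names came from the platform annotation, only where it gives 1 symbol to a probe set (34945 probe sets; 932 have several and 9160 none). A linear model per probe set was fitted with limma 3.58.1 in R 4.3.3 (lmFit and eBayes, no block, two-sided) on the 24385 probe sets with a mean of at least 3, and p-values were adjusted by Benjamini-Hochberg over all of them. The fit was tested on simulated data. The genes and lists were chosen with earlier results of these data known. All genes of the set are named. Values by array are given for the 10 with the smallest p and for those with the lowest and highest mean, and from other lists the called genes are named, or else the 2 with the smallest p. Promoter windows come from RefSeq (GRCm38.p6). Of 1558 pairs of overlapping windows on opposite strands 1558 were reverse complements, so windows read along the gene. Alternatives were other minimum means, moderation, normalization, array weights, probe set choices, a floor at 3, the replicate number as a block, and each array left out. A planned 3′ to 5′ comparison of control probe sets was not run. Figures were drawn with matplotlib 3.10.9.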

Additional observations from a re-analysis of the deposited data

How the results depend on the processing

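In limma 1 replication gene was called, with 1 of the other replication genes, 0 mitosis genes, 0 E2f and Rb genes and 1 cell cycle exit gene. Array weights raised these counts to 9, 13, 3, 4 and 5 by the default method, which gave heterozygous replicate 2 a weight of 14.5 and heterozygous replicate 3 one of 0.241, and to 6, 4, 0, 2 and 3 by the gene-by-gene method. The replication, mitosis and E2f and Rb calls were all higher in null arrays, while 3 of the 13 other replication genes and 3 of the 5 exit genes were lower by the default method, and 1 of 4 and 2 of 3 by the other. Over all tested genes the same weights raised the calls from 395 to 3333 and 1496. By the default weights the 9 replication genes were Brca1, Orc1, Cdc6, Mcm10, Gins1, Gins3, Pcna, Fen1 and Ccne1, while the median log2 difference of the set fell to 0.238, and Mcm7 (-0.080), Pola1 (-0.19), Pole (-0.0085) and Rfc5 (-0.074) reversed, as did Pola1 by the other method (-0.084). With trend moderation 2 genes were called in each of the 4 lists other than mitosis, 1 of the 2 being lower among the other replication and exit genes. Averaging probe sets, or using only those without the s or x suffix, gave 2 replication genes, Brca1 and Fen1, and averaging gave 1 E2f and Rb gene. The probe set with the largest SD gave 1 replication gene, but Fen1 (limma adjusted p = 0.0259) in place of Brca1 (0.0719). A minimum mean of 2 or no minimum gave 0 replication genes, 0 other replication genes and 1 E2f and Rb gene. A minimum of 4 and the floor at 3 also gave 1 E2f and Rb gene, E2f5. Robust moderation gave 0 replication genes. Ordinary t statistics gave 0 calls in the replication, other replication and cell cycle exit lists, and 0 among all genes. The share called over all tested genes was 3.46% in the main fit, 4.77% with trend and 3.06% with robust moderation. It was 4.42% by averaging, 3.65% without the s or x suffix and 4.1% by the largest SD. With a minimum mean of 2, none or 4 it was 2.51%, 1.74% and 3.7%, and with the floor at 3 it was 3.42%. Without 1 array, 0 to 0 replication genes, 0 to 1 other replication genes and 0 to 1 cell cycle exit genes were called. The share over all tested genes ran from 0.271% to 4.07%. In those fits the median of the replication genes ran from 0.365 to 0.715, and the differences of Prim1 (-0.22 to 0.14), Pold1 (-0.047 to 0.43) and Rrm1 (-0.047 to 0.48) changed sign. Causes of these shifts were not tested.

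Deviations from the group means had correlations of -0.06, 0.11 and 0.24 between arrays of the same number. For 3 of 6 arrays the partner of that number was the closest. Between arrays of unlike number the correlations ran from -0.26 to 0.22. With 3 arrays per group, these values cannot decide whether the replicate numbers mark a pairing. A replicate block on them left 0 replication genes, 0 other replication genes and 0 cell cycle exit genes called, and 73 of all tested genes.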
